A study of Danio rerio with 24 samples.

Results

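The proteasome genes of the zebrafish array were taken as every gene whose symbol is psm, a letter from a to g and a digit, and 56 such genes were found among the 12858 genes with a symbol. A further 3 genes of that form in the table of names (*psmb11b*, *psme4a* and *psmg4*) were not found on the array. By role, the 56 genes were 10 genes of the 20S alpha ring, 7 of the standard 20S beta ring, 6 of the immunoproteasome type, 7 ATPases and 13 non-ATPases of the 19S cap, 4 activators, 6 assembly chaperones, 1 inhibitor and 2 genes whose products only interact with proteasome or activator proteins (*psmc3ip* and *psme3ip1*). Each gene was read through its probe with the highest mean over the 24 arrays.

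Adult wild-type zebrafish kept for 8 months on the diet labelled normal were injected in the peritoneum with 10 μg of LPS, a component of the bacterial outer membrane, or with PBS, the buffer alone. Muscle, kidney and liver were taken 3 hours later. The 6 groups were Muscle LPS, Muscle PBS, Kidney LPS, Kidney PBS, Liver LPS and Liver PBS, each with 4 arrays, and each array held RNA pooled from 3 fish. All values are log2 signals relative to the 75th percentile of the array, so 0 is that percentile, and the differences are differences of such log2 signals.

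The proteasome is the protease that degrades most ubiquitin-tagged proteins in the cytosol and nucleus. Its 20S core is a barrel of alpha and beta rings, with the cleaving sites in the beta rings. Either the 19S cap, whose ATPases unfold the substrate, or an activator such as PA28 opens the barrel. In mammals interferon-gamma induces a second set of catalytic beta subunits, which replace the standard ones to form the immunoproteasome, and the PA28 subunits encoded by *psme1* and *psme2*, and these forms cut peptides for display on MHC class I. In zebrafish *psmb8a*, *psmb9a*, *psmb10*, *psmb12* and *psmb13a* belong to this family, which has members outside the mammalian set.

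Of the 56 proteasome genes, 55 were well above background on all 24 arrays, against 5818 of the 12858 genes (45.2%), and 53 had a mean above 0. The exception was *psmb11a*, a homologue of the thymus-specific catalytic subunit, which was well above background on 2 of the 24 arrays, so no fold is given for it. In each fit a probe was tested only if at least 1 of the arrays fitted had its raw signal within the 20th to 95th percentile of that array. *psma1*, *psma4*, *psma8* and *psmb4* lay above the 95th percentile throughout and were tested in no comparison, and the number tested is given with each comparison.

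Per array, 39.4 to 84.8% of the spots were well above background. On 5 arrays the hepatocyte marker list (11 of 14 genes found) stood away from the other arrays of the tissue. Its mean log2 signal was 2.84 on Liver LPS 2, against 5.08 to 7.55 on the other liver arrays, and it was 5.55 on Kidney LPS 2, 6.12 on Kidney PBS 2, 4.80 on Muscle LPS 4 and 4.31 on Muscle PBS 2, against 2.80 or less on the other kidney and muscle arrays. Other lists also varied within a tissue. The skeletal muscle list (11 of 14 genes found) had 2.93, -2.61, -2.43 and 3.37 on the Kidney PBS arrays. On the Kidney LPS arrays it had 2.11, 0.37, -1.18 and 1.29. The exocrine pancreas list ranged from -0.09 to 4.82 in Muscle LPS and from 2.11 to 4.18 in Muscle PBS. The part of these 2 lists in the kidney and muscle results was not tested. The oocyte and germ cell list (23 of 26 genes found) had signal in every group, and its values are given beside some of the results. Kidney PBS 1 to 3 shared a slide and scan day that held no other array.

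The first question was whether LPS changed these genes in each tissue. No proteasome gene passed the test in any of the tissues: 0 of 48 tested in muscle, 0 of 44 in kidney and 0 of 51 in liver had an adjusted p below 0.05 (limma, Benjamini-Hochberg over all probes tested). Over all genes tested 0% passed in muscle, 0.075% in kidney and 0.525% in liver. At an unadjusted p below 0.05, 1 proteasome gene passed in muscle (2.08%, against 2.51% of all genes), 2 in kidney (4.55%, against 6.31%) and 4 in liver (7.84%, against 18.7%). The smallest adjusted p-values of a proteasome gene were 0.916 in muscle, 0.399 in kidney and 0.194 in liver.

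The direction of the estimates differed between tissues. The median log2 difference, LPS minus PBS, was -0.26 in muscle (all genes -0.09), with 14 estimates above 0 and 34 below. It was 0.07 in kidney (all genes -0.02), with 24 above 0 and 20 below. It was 0.33 in liver (all genes 0.04), with 44 above 0 and 7 below. These counts and medians cover the tested genes only. In kidney most genes left out by the filter had lower means in LPS. Among them *psmd1* had a difference of means of -0.32, *psmc2* -0.27 and *psma8* -0.25, while *psma4* had 0.07. With these genes counted, more kidney genes lay below 0 than above. The liver median was 0.14 after quantile normalization. With the slide as a block it was 0.03, but only 1 slide held both treatments in liver, so that value sets Liver LPS 1 alone against Liver PBS 2 to 4.

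**Figure D1:**
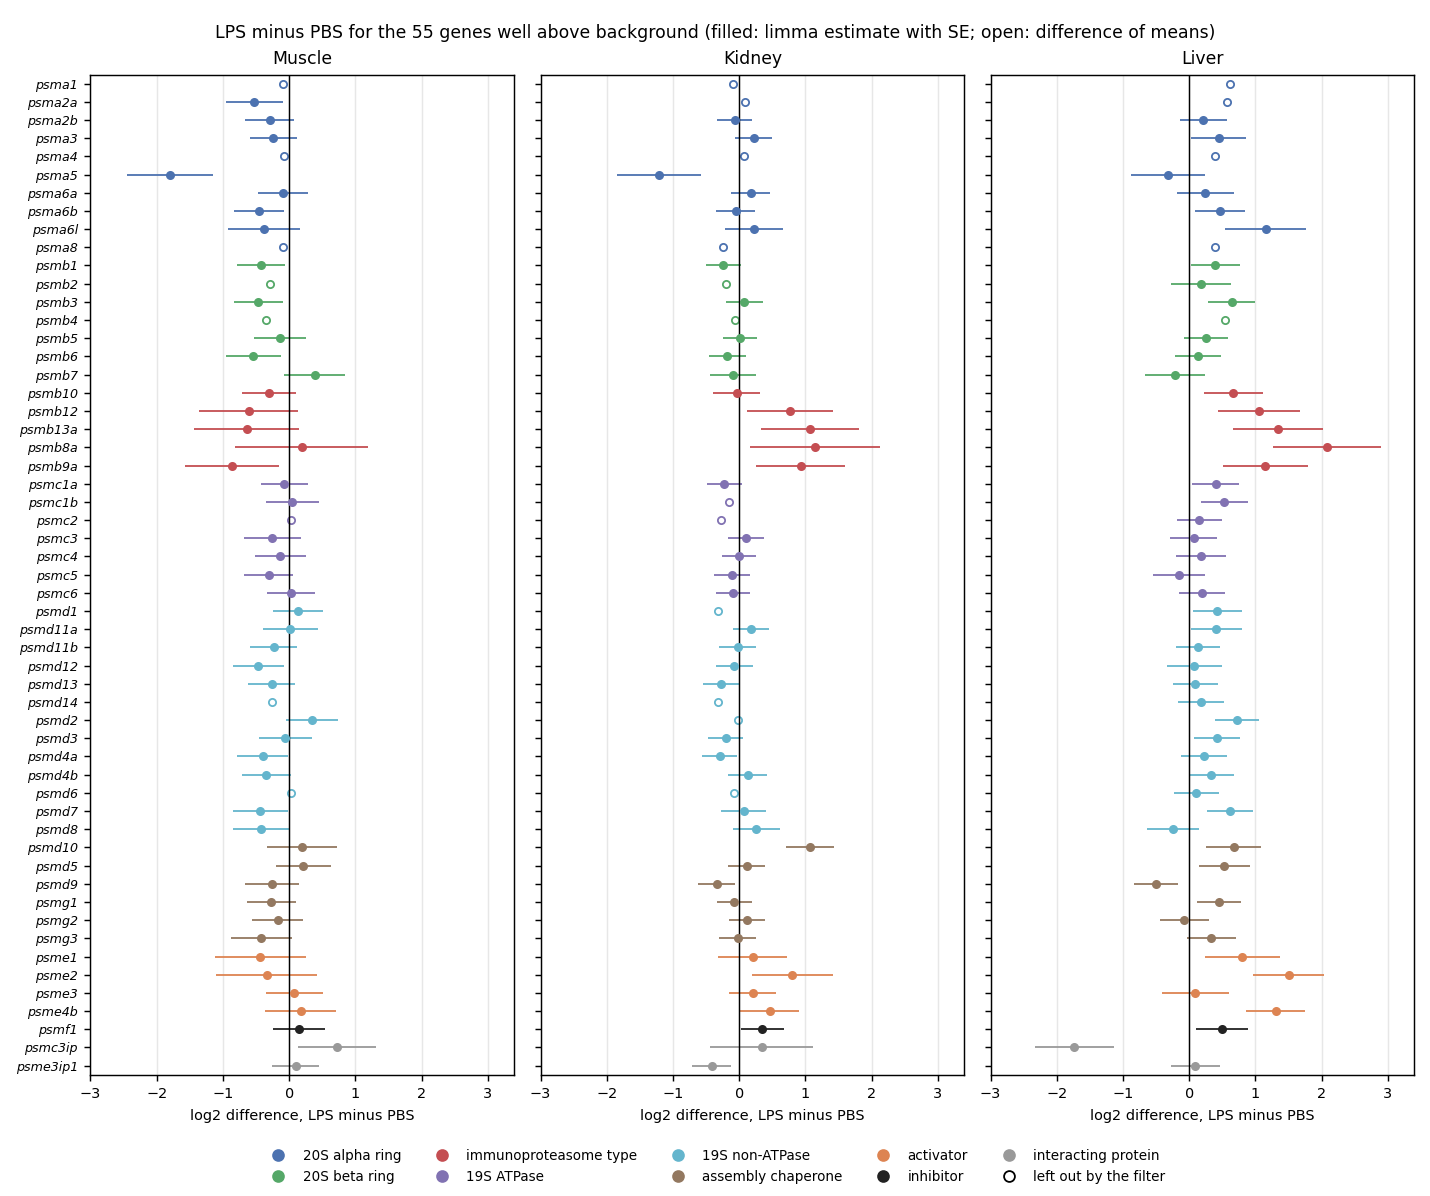
Log2 difference, LPS minus PBS, of the 55 proteasome genes well above background in muscle, kidney and liver, coloured by role. Filled points are limma estimates with bars of 1 standard error, open points are differences of means for genes left out by the filter, and the immunoproteasome type genes and activators lie right of 0 in liver (0.09 to 2.08).

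The largest estimate in liver was that of *psmb8a*, one of the immunoproteasome type subunits, whose catalytic sites favour peptides that fit MHC class I. It was followed by *psme2*, *psmb13a*, *psme4b* and *psma6l* (1.50, 1.35, 1.31 and 1.16). All 5 subunits of the type that were above background had an estimate above 0 in liver (0.66 to 2.08, median 1.15), 4 of 5 in kidney (-0.04 to 1.14, median 0.93) and 1 of 5 in muscle (-0.87 to 0.19, median -0.61). None passed the test in any tissue.

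*psmb8a*, the counterpart of the mammalian subunit LMP7, had log2 signals of 2.92, 2.64, 2.49 and 1.30 on the 4 Liver LPS arrays, against -1.90, 2.53, -0.38 and 0.78 on the 4 Liver PBS arrays. Liver PBS 2 lay within the range of the LPS arrays, and the PBS arrays spanned over 4 log2 units. The difference was 2.08 (95% interval 0.27 to 3.88, limma adjusted p = 0.258). Without Liver PBS 2 it was 2.84 with an adjusted p of 0.0337, and over the alternatives tried the adjusted p lay between 0.0337 and 0.955.

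The same gene varied as widely in the other tissues. In kidney *psmb8a* had log2 signals of 0.99, 1.57, 1.14 and 3.32 on the LPS arrays, against -0.79, 3.27, -1.04 and 1.02 on the PBS arrays. In muscle it had 1.50, 0.62, 0.42 and -0.15 on the LPS arrays, against -1.98, 3.41, -0.87 and 1.06 on the PBS arrays. The groups overlapped in both tissues, and the differences were 1.14 in kidney (95% interval -1.1 to 3.38) and 0.19 in muscle (95% interval -2.03 to 2.41).

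*psmb9a*, the LMP2 homologue, had log2 signals of 3.1, 4.43, 3.42 and 2.04 on the Liver LPS arrays, against 0.52, 3.02, 2.19 and 2.65 on the Liver PBS arrays. *psmb13a*, a fish subunit of the same family, had 2.30, 4.03, 2.55 and 1.41 on the Liver LPS arrays, against -0.38, 2.32, 1.22 and 1.75 on the Liver PBS arrays. In both genes Liver LPS 2 was the highest array, and Liver LPS 4 lay inside the PBS range. The differences were 1.15 for *psmb9a* (95% interval -0.27 to 2.57, limma adjusted p = 0.442) and 1.35 for *psmb13a* (95% interval -0.15 to 2.85, limma adjusted p = 0.387).

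*psmb12*, a further fish member of the family, had log2 signals of 4.19, 5.37, 4.04 and 2.95 on the Liver LPS arrays, against 1.70, 4.04, 2.98 and 3.62 on the Liver PBS arrays. *psmb10*, the MECL1 homologue, had 2.98, 4.04, 3.32 and 2.57 on the Liver LPS arrays, against 1.85, 3.05, 2.42 and 2.92 on the Liver PBS arrays. The groups overlapped, and the differences were 1.05 for *psmb12* (95% interval -0.33 to 2.43) and 0.66 for *psmb10* (95% interval -0.32 to 1.65). In kidney the differences were 0.93 for *psmb9a*, 1.07 for *psmb13a*, 0.77 for *psmb12* and -0.04 for *psmb10*, and in muscle they were -0.87, -0.64, -0.61 and -0.30 in the same order. Muscle PBS 2, on which the hepatocyte list stood high, was the highest muscle array in *psmb8a*, *psmb9a*, *psme1* and *psme2*. Without it and Muscle LPS 4 the muscle differences were 0.0132 for *psmb9a*, 0.30 for *psmb13a* and 0.38 for *psmb12*.

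**Figure D2:**
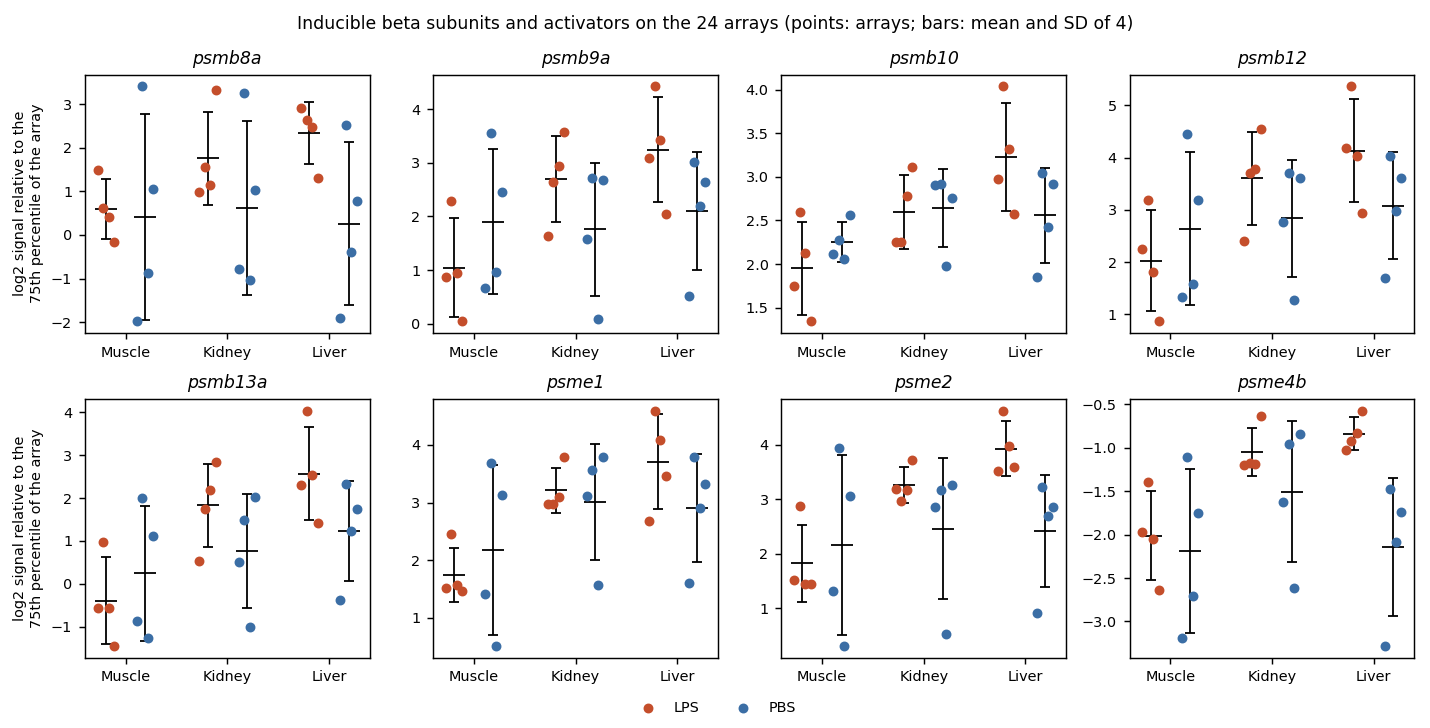
Log2 signal relative to the 75th percentile of the array for the 5 immunoproteasome type subunits above background and for *psme1*, *psme2* and *psme4b*, with 1 point per array and bars for the mean and SD of 4 arrays. LPS arrays stand left of PBS arrays within muscle, kidney and liver, and the groups do not overlap only for *psme2* and *psme4b* in liver.

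By the probes used, the standard catalytic subunits that these replace differed less in liver. *psmb5*, the chymotrypsin-like subunit, had log2 signals of 2.70, 2.74, 2.44 and 2.71 on the Liver LPS arrays, against 2.42, 2.26, 2.34 and 2.56 on the Liver PBS arrays, a difference of 0.25 (95% interval -0.47 to 0.98). *psmb6*, the caspase-like subunit, had 3.25, 3.84, 3.35 and 3.61 on the Liver LPS arrays, against 3.57, 3.22, 3.23 and 3.48 on the Liver PBS arrays, a difference of 0.13. *psmb7*, the trypsin-like subunit, had 3.25, 1.91, 2.62 and 3.43 on the Liver LPS arrays, against 3.57, 2.32, 3.04 and 3.14 on the Liver PBS arrays, a difference of -0.22. The arrays overlapped in all 3 genes. The size depended on the probe. Further probes of *psmb5* gave 0.50 and 0.88 in liver, the latter above the 0.66 of *psmb10*. Further probes of *psmb7* gave -0.26, -0.36, -0.42 and, for a probe not above background on every array, -1.21.

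Among the activators, *psme2*, which encodes the beta subunit of PA28, had log2 signals of 3.51, 4.62, 3.97 and 3.60 on the Liver LPS arrays, against 0.92, 3.22, 2.69 and 2.86 on the Liver PBS arrays. *psme4b*, which encodes the PA200 activator of the nucleus, had -1.02, -0.92, -0.83 and -0.58 on the Liver LPS arrays, against -3.28, -1.48, -2.08 and -1.74 on the Liver PBS arrays. In both genes the lowest LPS array was above the highest PBS array. The differences were 1.50 for *psme2* (95% interval 0.32 to 2.69, limma adjusted p = 0.212) and 1.31 for *psme4b* (95% interval 0.33 to 2.29, limma adjusted p = 0.194), so neither passed the test.

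*psme1*, the alpha subunit of PA28, had log2 signals of 2.69, 4.59, 4.09 and 3.47 on the Liver LPS arrays, against 1.61, 3.79, 2.91 and 3.32 on the Liver PBS arrays, and the groups overlapped. Its difference was 0.80 (95% interval -0.45 to 2.05). Within the single slide that held both treatments it was -0.66, which rests on Liver LPS 1, the array with the most outlier spots (3399) and the fewest spots above background (39.4%). *psme3*, which encodes the nuclear activator PA28 gamma, had 2.19, 2.49 and 3.60 on Liver LPS 2 to 4, its spot on Liver LPS 1 being an outlier that the fit dropped, against 3.31, 1.99, 2.77 and 2.59 on the Liver PBS arrays. Its difference was 0.09. In kidney all 4 activators had estimates above 0 (0.20 to 0.80), and in muscle they lay between -0.43 and 0.18.

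Cell type marker lists also varied between the liver arrays. The oocyte and germ cell list had a mean log2 signal of 1.31, 1.26, 0.93 and 0.31 on the Liver LPS arrays, against 4.56, 1.54, 4.22 and 3.14 on the Liver PBS arrays, so the groups did not overlap. Its summed linear signal ranged from 105 to 210 in Liver LPS, where *ddx4* was not above background on any array, and from 247 to 1256 in Liver PBS. With the level of that list as a covariate the liver differences were -0.42 for *psmb8a*, 0.40 for *psme2* and 0.19 for *psme4b*, in a fit where list and treatment cannot be told apart. The leukocyte list (11 of 14 genes found) summed to 16.4 to 57.5 in Liver LPS, where *csf1ra*, *pax5* and *rag1* were not above background, and to 5.80 to 32.6 in Liver PBS. The exocrine pancreas list (12 of 16 genes found) had a mean log2 signal of 6.49, 6.36, 5.86 and 7.37 on the Liver LPS arrays, against 4.48, 5.74, 5.78 and 5.94 on the Liver PBS arrays. It summed to 1857 to 5022 in Liver LPS and to 680 to 2020 in Liver PBS, where *ptf1a* was not above background. The parts of the leukocyte and pancreas lists in the result were not tested. In such bulk tissue fewer cells of a type and less RNA per cell cannot be told apart.

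In liver the medians of the other roles lay below those of the immunoproteasome type and the activators (1.05 over the 4). They were 0.35 over the 6 alpha ring genes tested (5 above 0), 0.22 over the beta ring, 0.18 over the ATPases, 0.22 over the 13 non-ATPases (12 above 0) and 0.39 over the chaperones, against 0.04 over all genes. Groups that did not overlap were seen in 6 proteasome genes tested in liver, 5 higher and 1 lower in LPS, against 6.36% of all genes higher and 6.88% lower. Beside *psme2* and *psme4b* the higher ones were *psmd2*, *psmd7* and *psmb3*.

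*psmd2*, the 19S scaffold subunit that binds ubiquitin-like domains, had log2 signals of 3.58, 4.00, 3.70 and 3.93 on the Liver LPS arrays, against 2.92, 3.08, 2.97 and 3.37 on the Liver PBS arrays. *psmd7*, the partner of the cap's deubiquitinase, had 2.25, 2.59, 2.27 and 2.04 on the Liver LPS arrays, against 1.54, 1.77, 1.38 and 2.01 on the Liver PBS arrays. The differences were 0.72 for *psmd2* (95% interval -0.03 to 1.46), 0.61 for *psmd7* and 0.64 for *psmb3*, a structural beta subunit. A further probe of *psmd7* gave 0.80 in liver, though over the 24 arrays it correlated with the probe used at r = -0.09.

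The gene that was lower was *psmd9*, which encodes a chaperone that helps assemble the ATPase ring. It had log2 signals of 0.77, 1.17, 0.91 and 1.02 on the Liver LPS arrays, against 1.73, 1.20, 1.56 and 1.40 on the Liver PBS arrays. The gap was narrow, and the difference was -0.50 (95% interval -1.25 to 0.24). *psmf1*, which encodes the inhibitor PI31, had -0.30, 0.64, 0.69 and 0.02 on the Liver LPS arrays, against -0.14, 0.20, -0.41 and -0.57 on the Liver PBS arrays, with overlap and a difference of 0.49.

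The lowest estimate in liver was that of *psmc3ip*, which is no proteasome subunit but encodes a meiotic recombination protein that binds the ATPase PSMC3 in mammals. It had log2 signals of -1.47, -0.39, -0.44 and -1.19 on the Liver LPS arrays, against 2.2, -0.67, 1.44 and 0.47 on the Liver PBS arrays. The groups overlapped through Liver PBS 2, and the difference was -1.73 (95% interval -3.06 to -0.40, limma adjusted p = 0.202). With the level of the oocyte list as a covariate it was 0.25, and without Liver PBS 2 it was -2.24 with an adjusted p of 0.0331. Over the alternatives tried the adjusted p lay between 0.0331 and 0.956.

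*psma8*, the alpha subunit of the testis proteasome in mammals, was not tested. It had log2 signals of 4.70, 5.20, 4.98 and 4.77 on the Liver LPS arrays, against 4.10, 4.70 and 4.77 on 3 Liver PBS arrays. The differences of its means were 0.39 in liver, -0.25 in kidney and -0.09 in muscle. *psma6l*, an alpha ring gene, had a difference of 1.16 in liver (95% interval -0.20 to 2.51).

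In kidney the groups did not overlap in 5 proteasome genes tested, 2 higher and 3 lower in LPS, against 2.22% of all genes higher and 3.61% lower. One of the higher ones was *psmb11a*, which lay below background. The other was *psmd10*, the chaperone also known as gankyrin, with log2 signals of 2.42, 2.35, 2.23 and 2.57 on the Kidney LPS arrays, against 1.55, 0.94, 2.07 and 0.74 on the Kidney PBS arrays. Its difference was 1.07 (95% interval 0.23 to 1.90, limma adjusted p = 0.555), and a further probe of the gene gave 1.19. The 3 lower genes were *psmb1*, *psmd4a*, a ubiquitin receptor of the cap, and *psmc1a*, an ATPase. Their differences were -0.24, -0.29 and -0.23. For *psmb1* the highest LPS array was at 2.968 and the lowest PBS array at 2.977, and for *psmc1a* at 2.318 and 2.321. The groups of these 2 genes thus only just missed each other. Further probes gave -0.0008 for *psmb1*, -0.05 and -0.20 for *psmd4a*, and -0.02, 0.03 and 0.04 for *psmc1a*.

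The slide and the treatment could hardly be told apart in kidney, since the only slide with both treatments held Kidney LPS 1 to 3 and Kidney PBS 4. With the slide as a block, which sets those 3 LPS arrays against that 1 PBS array, the differences of *psmb9a*, *psmb12*, *psmb13a*, *psme1* and *psme2* were -0.28, -0.31, -0.55, -0.78 and -0.16. Kidney PBS 3 was the lowest array of its group in *psmb9a* (0.08), *psmb12* (1.28), *psmb13a* (-1.0), *psme1* (1.56) and *psme2* (0.53). The oocyte list had a mean log2 signal of 4.21, 3.76, 3.94 and 2.11 on the Kidney LPS arrays, against 4.41, -0.99, 4.67 and -1.23 on the Kidney PBS arrays. The leukocyte list had 0.64, 0.55, 0.87 and 1.34 on the Kidney LPS arrays, against 1.52, 2.03, -0.34 and 2.17 on the Kidney PBS arrays, so Kidney PBS 3 was again the lowest, and its part in the result was not tested. With the level of the oocyte list as a covariate *psmb8a* passed the test in kidney with a difference of 2.18 (limma adjusted p = 0.0472), where 8.6% of all genes passed. Over the alternatives tried that p lay between 0.0472 and 1.

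In muscle *psmb1*, a structural beta subunit, was the only proteasome gene whose groups did not overlap, against 1.48% of all genes lower in LPS. It had log2 signals of 2.72, 2.78, 2.74 and 2.83 on the Muscle LPS arrays, against 3.06, 3.42, 2.92 and 3.38 on the Muscle PBS arrays. The difference was -0.43 (95% interval -1.22 to 0.37). *psma5*, an alpha ring subunit, had 1.87, 2.67, 0.62 and 0.48 on the Muscle LPS arrays, against 3.44, 3.89, 3.72 and 1.76 on the Muscle PBS arrays, which overlapped.

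The muscle difference of *psma5* was -1.79 (95% interval -3.23 to -0.36, limma adjusted p = 0.916). The value differed between probes of the gene. A further probe of *psma5* that was well above background on all 24 arrays correlated with it at r = 0.24 over those arrays. The further probe gave -0.49 in muscle, 0.41 in kidney and 0.62 in liver, where the probe used gave -1.79, -1.22 and -0.32.

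Over the 3 tissues together 0 of 52 proteasome genes tested passed, against 0.369% of all genes. At an unadjusted p below 0.05, 3 passed (5.77%, against 5.01% of all genes), namely *psma5* with a difference of -1.11, *psmd10* with 0.64 and *psme4b* with 0.65. The smallest adjusted p was 0.496. The median difference was 0.04 (all genes -0.01), and no proteasome gene had all LPS arrays apart from all PBS arrays, against 0.016% of all genes.

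Whether the LPS effect itself differed between tissues was tested in the fit of all 6 groups. No gene passed, proteasome gene or other, in any of the 3 pairs of tissues (0% of the 12480 genes tested). At an unadjusted p below 0.05 there were 6 of 52 proteasome genes for muscle against liver (all genes 17.3%), 1 for kidney against liver (7.72%) and 1 for muscle against kidney (8.21%). For muscle against liver the median difference of effects was -0.48 over the proteasome genes (all genes -0.27), with 48 of 52 below 0. It was -1.89 over the 5 immunoproteasome type genes above background (-2.02 to -0.97) and -1.18 over the activators. With the pool of fish as a block 1 of the 52 proteasome genes passed, against 7.67% of all genes. It was *psmc3ip*, with a difference of effects of 2.46.

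Tissues were compared within each treatment in the same fit, which tested 52 proteasome genes. Muscle, kidney and liver arrays shared no slide, and the muscle arrays shared no scan day with the others. Tissue therefore cannot be told apart from slide, nor from scan day in the comparisons with muscle. The LPS arrays of muscle and liver differed most: 15 proteasome genes passed (28.8%), against 47.3% of all genes. Of these 3 were higher in muscle, a smaller share of the 52 tested than the 23.8% over all genes. The 12 that were lower made up about the same share as the 23.5% over all genes. After quantile normalization 16 passed, with 8 higher and 8 lower and 11 of them among the 15, and the median over all genes was 0.15 there and 0.26 with normexp, a background correction, against -0.12 in the percentile-shifted values.

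The 12 genes lower in muscle were 4 of the immunoproteasome type, 3 activators, 4 of the alpha ring and the inhibitor *psmf1*. Of the 5 immunoproteasome type genes above background 4 passed, led by *psmb13a*, with log2 signals of -0.56, 0.98, -0.56 and -1.45 on the Muscle LPS arrays, against 2.30, 4.03, 2.55 and 1.41 on the Liver LPS arrays. Its difference was -2.97 (limma adjusted p = 0.0070). The differences of *psmb9a*, *psmb12* and *psmb10* were -2.21, -2.10 and -1.27, and *psmb8a*, at -1.74, did not pass (limma adjusted p = 0.171).

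Among the activators *psme2* had log2 signals of 1.53, 2.87, 1.45 and 1.44 on the Muscle LPS arrays, against 3.51, 4.62, 3.97 and 3.60 on the Liver LPS arrays. Its difference was -2.11 (limma adjusted p = 0.0198), beside -1.96 for *psme1* and -1.17 for *psme4b*. The alpha ring genes *psma6l*, *psma2a*, *psma3* and *psma6b* had differences of -1.82, -0.91, -0.81 and -0.75. In the percentile-shifted values none of the 7 ATPases and none of the 13 non-ATPases of the 19S cap passed. After quantile normalization *psmc6*, *psmd6*, *psmd12*, *psmd13* and *psmd14* passed, all higher in muscle (0.61 to 0.85), and with normexp *psmc1b* passed at -0.81.

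Higher in muscle were *psmb7*, with 4.53, 4.07, 4.11 and 3.97 on the Muscle LPS arrays, against 3.25, 1.91, 2.62 and 3.43 on the Liver LPS arrays, then *psmd9* and *psmc3ip*. The differences were 1.37 for *psmb7* (limma adjusted p = 0.0109), 1.15 for *psmd9* (limma adjusted p = 0.0035) and 3.12 for *psmc3ip* (limma adjusted p = 0.0020). *psmf1* was lower in muscle with a difference of -1.1 (limma adjusted p = 0.010), at -1.14, -0.91, -0.69 and -0.64 on the Muscle LPS arrays, against -0.30, 0.64, 0.69 and 0.02 on the Liver LPS arrays.

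The oocyte list separated the same groups, with a mean log2 signal of 4.96, 4.52, 5.29 and 5.17 on the Muscle LPS arrays, against 1.31, 1.26, 0.93 and 0.31 on the Liver LPS arrays. Its summed linear signal was 1624 to 2560 in Muscle LPS, against 105 to 210 in Liver LPS. With its level as a covariate 0 of the 52 genes passed, against 17.3% of all genes. Since the list lay apart in the 2 groups, its level and the tissue cannot be told apart in that fit. The leukocyte list summed to 7.58 to 24.5 in Muscle LPS, where *rag1* was not above background, against 16.4 to 57.5 in Liver LPS, and its part in the result was not tested. Without the 5 arrays whose hepatocyte markers stood apart, 4 genes passed, *psmd9*, *psmc3ip*, *psmf1* and *psmb7*, against 39% of all genes, and with Muscle PBS 2 put back the first 3 did. Without Liver LPS 2 alone, 7 passed (share of all genes not given here).

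**Figure D3:**
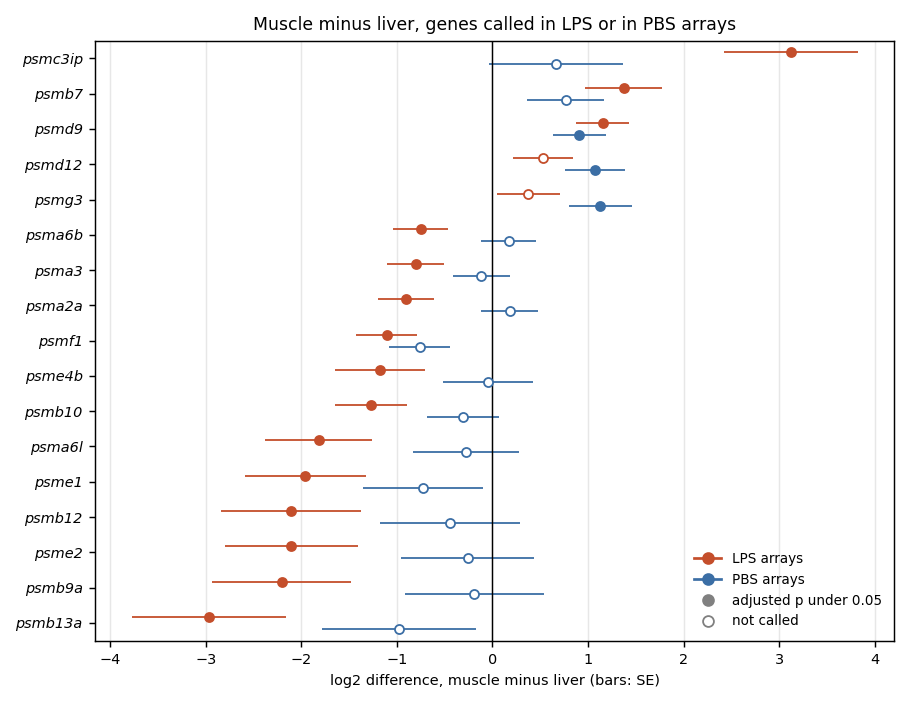
Log2 difference, muscle minus liver, of the 17 proteasome genes that passed the test in the LPS arrays or in the PBS arrays, with bars of 1 standard error. Filled points passed (adjusted p below 0.05) and open points did not, and *psmd9* is filled in both treatments (1.15 in LPS, 0.91 in PBS).

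In the PBS arrays 3 proteasome genes passed between muscle and liver, all higher in muscle, against 16.4% of all genes. *psmg3*, a chaperone of alpha ring assembly, had log2 signals of 2.68, 2.78, 3.39 and 1.91 on the Muscle PBS arrays, against 1.22, 1.27, 1.61 and 2.15 on the Liver PBS arrays. *psmd12*, a non-ATPase of the cap, had 3.44, 3.86, 3.60 and 3.05 on the Muscle PBS arrays, against 3.17, 1.90, 2.62 and 1.99 on the Liver PBS arrays. The groups overlapped in both, through Liver PBS 4 in *psmg3* and Liver PBS 1 in *psmd12*. The differences were 1.13 for *psmg3* (limma adjusted p = 0.0245) and 1.07 for *psmd12* (limma adjusted p = 0.0248).

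*psmd9* was the third, with a difference of 0.91 (limma adjusted p = 0.0326), and the only proteasome gene that passed in the same direction in LPS and PBS arrays of any pair of tissues. It had log2 signals of 2.13, 2.07, 2.24 and 2.04 on the Muscle LPS arrays and 2.46, 2.45, 2.98 and 1.63 on the Muscle PBS arrays. With the replicate number as a block on the 8 PBS arrays, 0 proteasome genes passed, against 18.1% of all genes. On those 8 arrays without the block 0 passed, against 11.3% of all genes. The count of 3 was also 1 without Muscle PBS 2 or without Liver PBS 4, and 0 without Muscle PBS 3 or without Liver PBS 2. The immunoproteasome type genes above background had PBS differences between -0.98 and 0.15, with none past the test.

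No proteasome gene passed between kidney and liver in the LPS arrays (13.9% of all genes did) or between muscle and kidney in the LPS arrays (13.8%). At an unadjusted p below 0.05 there were 4 such genes (29.7% of all genes) and 8 (28.9%). In the PBS arrays 1 proteasome gene passed between kidney and liver (19.3% of all genes) and 1 between muscle and kidney (13.9%). In each case it was *psmb11a*, a call on a probe below background on nearly all arrays. Between kidney and liver this call was lost without Kidney PBS 1, Kidney PBS 3 or Liver PBS 2. Between muscle and kidney the count was 2 without Muscle PBS 2 or Kidney PBS 3 and 3 without Muscle PBS 4.

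The proteasome genes fell into a tight majority and a variable minority among arrays of the same group. The pooled within-group SD of the log2 signal had a median of 0.30 over the 56 genes, against 0.56 over the 5818 genes well above background on all arrays. By role the medians were 0.22 for the ATPases, 0.25 for the non-ATPases, 0.25 for the beta ring and 0.31 for the alpha ring. They were 0.79 for the activators and 1.09 for the 5 immunoproteasome type genes above background. *psmb8a* had the largest SD of the 56 at 1.59, which lay at the 97.6th percentile of those genes, and *psmd13*, a structural subunit of the cap, the smallest at 0.17.

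**Figure D4:**
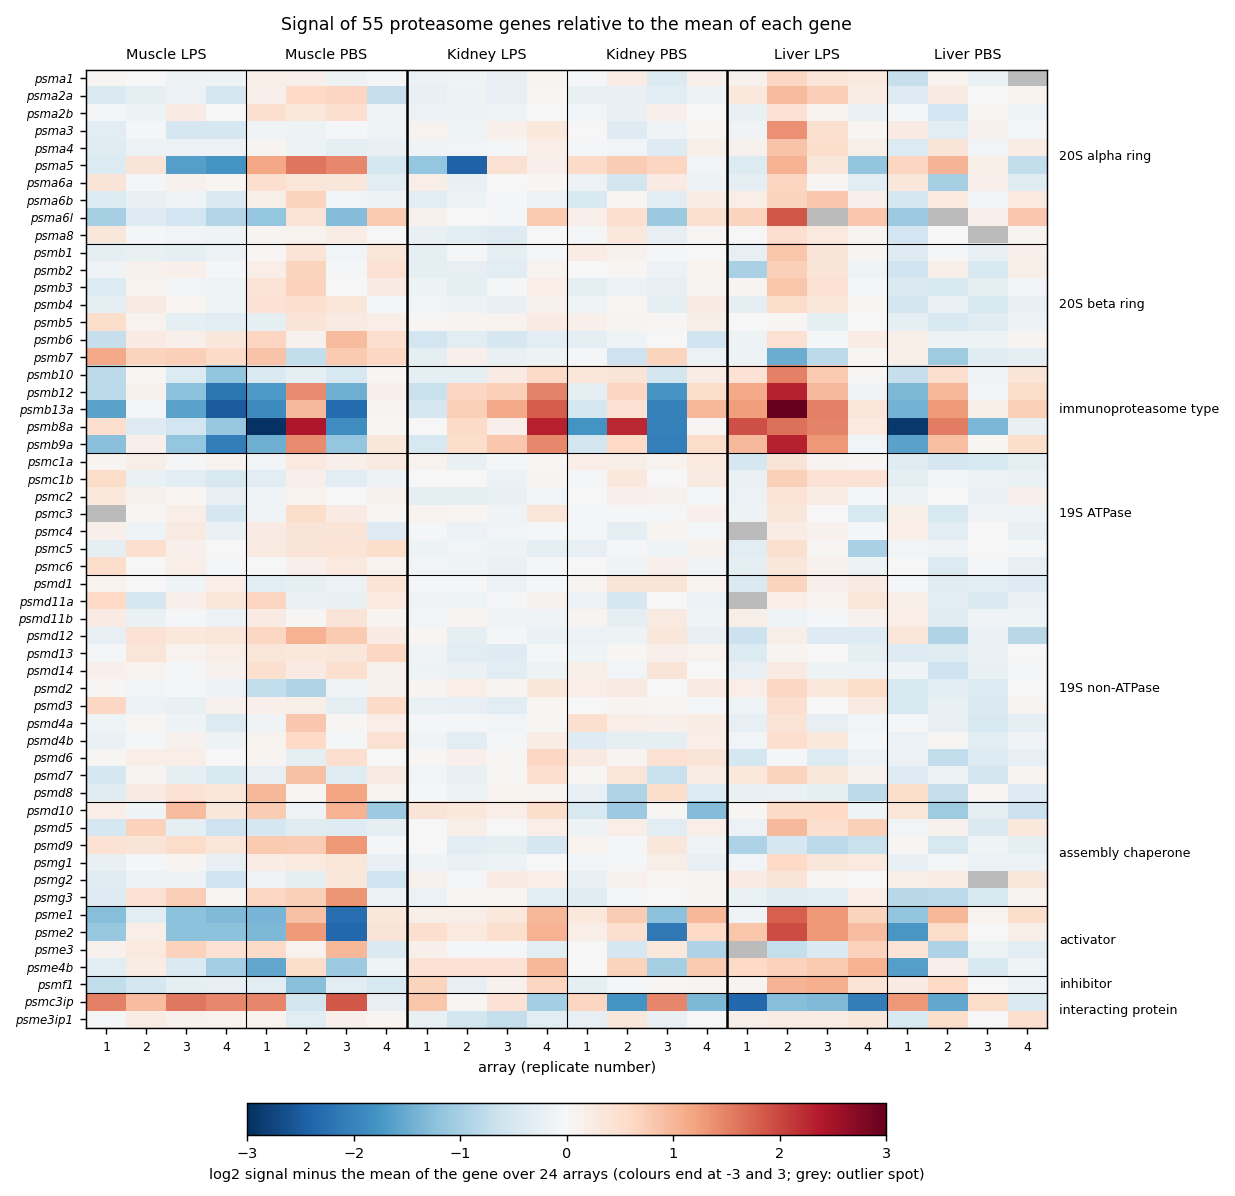
Log2 signal of the 55 proteasome genes well above background, minus the mean of each gene over the 24 arrays, with genes in rows by role and arrays in columns by group. Colours end at -3 and 3, grey marks outlier spots, and the rows of *psmb8a*, *psmb13a*, *psmb12* and *psmb9a* have the widest spread within groups (SD 1.08 to 1.59).

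The inducible genes moved together between arrays. After the group means were taken out, the 21 pairs among *psmb8a*, *psmb9a*, *psmb10*, *psmb12*, *psmb13a*, *psme1* and *psme2* correlated over the 24 arrays with Pearson's r between 0.53 and 0.99 (median 0.84) and Spearman's rho between 0.56 and 0.97. The largest adjusted p of these 21 was 0.0088 (permutation test within groups, adjusted over 66 pairs). The permutations treat the 24 arrays as independent. If same-numbered arrays of different tissues share a pool of fish, these p-values and those of the next paragraph may be too small. Without the 2 arrays farthest from the median the lowest r was 0.60. *psmb9a* and *psmb12* had the highest r, 0.99 (rho 0.95, permutation p = 1e-05, the smallest the permutations can give), and *psme1* and *psme2* had 0.97. Of the other genes with a wide spread, *psmc3ip* (SD 1.04), *psma5* (0.95) and *psma6l* (0.74) were not in that set, while *psmb10*, which was, had an SD of 0.48.

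The other activators and the standard catalytic subunits differed among themselves. *psme4b* correlated with the 7 genes about as closely as they did with each other. Its r lay between 0.61 and 0.89 (largest adjusted permutation p 0.0021), with a median of 0.84. *psme3* correlated with the 7 genes negatively, at r between -0.83 and -0.70 (largest adjusted permutation p 0.0043), and so did *psmb7*, at -0.77 to -0.61 (0.0057). *psmb5* had r between 0.17 and 0.45 and *psmb6* between -0.43 and -0.01, with largest adjusted permutation p-values of 0.533 and 0.963.

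Marker lists of several other cell types also varied over these arrays. The mean log2 signal of the 7 genes was 1.26, 2.14, 1.11 and 0.51 on the Muscle LPS arrays, against 0.57, 3.34, 0.47 and 2.37 on the Muscle PBS arrays. The leukocyte list had -1.87, -0.79, -2.10 and -2.13 on the Muscle LPS arrays, against -1.20, -0.37, -2.61 and -0.39 on the Muscle PBS arrays. It was thus highest on the PBS arrays, 2 and 4, on which those genes were highest, and its relation to them was not tested. The red cell list (9 of 10 genes found) was also highest on those arrays. It had 1.73 and 1.75 there, against -0.05 to 0.40 on the other muscle arrays, and its relation was not tested either. For the oocyte list in muscle, over 8 arrays of both treatments, 7 of the 56 genes were related to its mean log2 signal at an adjusted p below 0.05 (exact permutation tests, adjusted over 112 relations). The share of all genes so related was not determined, so the count cannot be called particular to proteasome genes. Of the 7 genes 6 fell as the list rose, namely *psmb9a*, *psmb12*, *psmb13a*, *psme1*, *psme2* and *psmd7*. *psme2* had r = -0.92 (rho -0.98, exact permutation p = 4.96e-05, adjusted p = 0.0056), and r stayed at -0.92 without the 2 arrays farthest from the median. For *psmd7* r was -0.94, and -0.51 without those 2 arrays. A further probe of *psmd7* was well above background on all 24 arrays and correlated with the probe used at r = -0.09. Its relation to the list was not tested. *psmc3ip* rose with the list at r = 0.97 (rho 0.88, adjusted exact permutation p = 0.0148), and at 0.89 without the 2 arrays.

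In kidney the relation was taken over the 6 arrays on which the list was above 0, since Kidney PBS 2 and PBS 4 lay far below. That choice was made from the list values, so r and p describe these 6 arrays only. *psmb8a* had r = -0.92 there (rho -1, exact permutation p = 0.00139, adjusted p = 0.0301), and -0.88 without the 2 farthest arrays. On the arrays left out *psmb8a* had 3.27 (Kidney PBS 2) and 1.02 (Kidney PBS 4). The latter array was the lowest on the list, yet its *psmb8a* lay inside the range of the 6 arrays. No r over all kidney arrays is given. *psmc3ip* had r = 0.96 over the 6 arrays (adjusted exact permutation p = 0.0398). In liver the LPS and PBS arrays lay apart on the list, so no relation was computed.

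**Figure D5:**
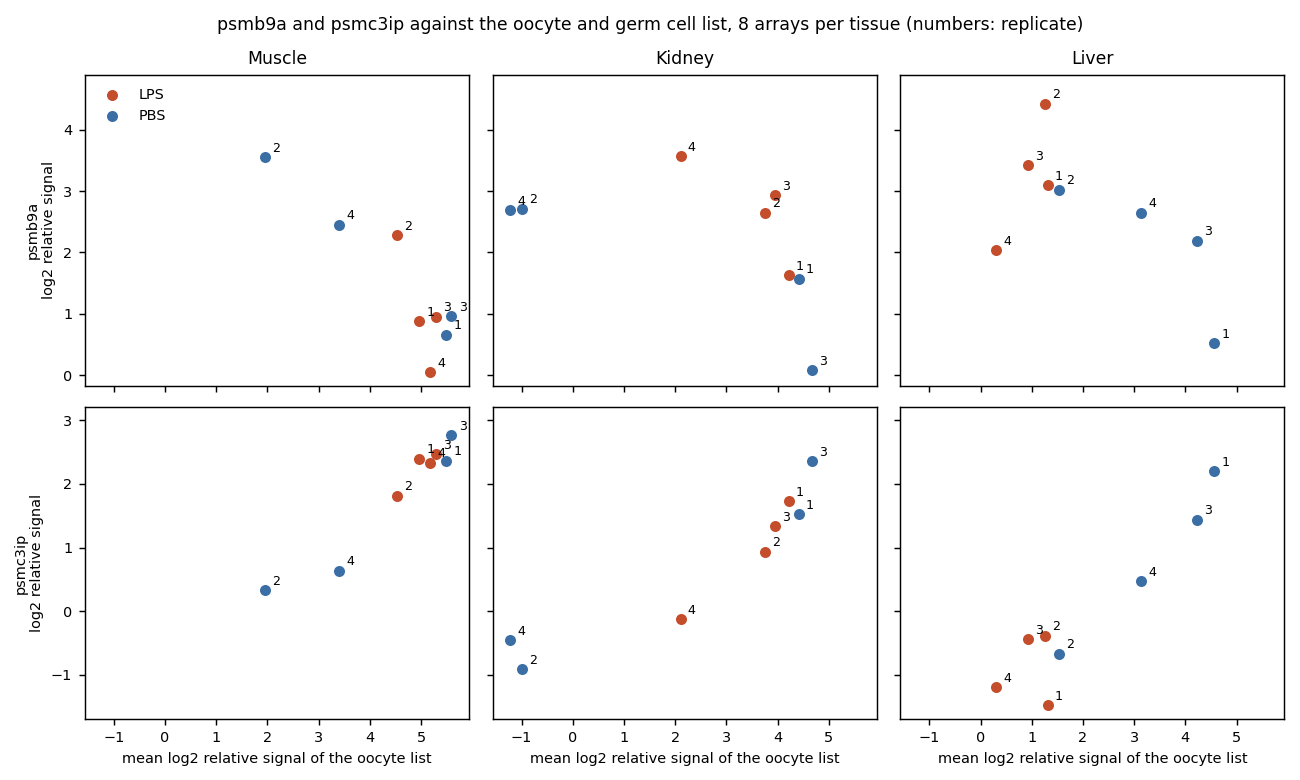
Log2 signal of *psmb9a* (top) and *psmc3ip* (bottom), an immunoproteasome type subunit and a meiotic gene, against the mean log2 signal of the oocyte and germ cell list in muscle, kidney and liver, with 1 point per array and its replicate number beside it. *psmb9a* falls and *psmc3ip* rises along the list in muscle (r = -0.91 and 0.97), and the liver LPS arrays all lie at 1.31 or below on the list.

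Arrays of the same treatment and number in different tissues were taken to come from 1 pool of fish, which the labels do not state. Over the 8 pools, after the treatment means were taken out, *psmb8a* correlated between muscle and liver at r = 0.97 (rho 0.98, exact permutation p = 0.00174, adjusted p = 0.259 over 149 relations), and at 0.89 without the 2 farthest pools. Between muscle and kidney it had r = 0.71 and between kidney and liver 0.60. No relation passed the adjustment. Among the 4 PBS pools, pool 2 was the highest and pool 4 the next in *psmb8a* in all 3 tissues. The mean r over the pairs of tissues had a median of 0.19 over the 56 genes, against 0.39 over the 5818 genes.

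A choice of probe stood behind each value. Of the 56 genes 35 had more than 1 probe, and 46 of the 56 further probes were well above background on all arrays. These correlated with the probe used at a median r of 0.55 over the 24 arrays, and the lowest r was -0.18. Among the genes with a wide spread, *psmb13a*, *psmb9a*, *psme2* and *psma6l* had 1 probe only, and the probes of *psma5* differed as given above. The further probe of *psmb8a* (r = 0.96) gave a liver difference of 2.42 beside 2.08, that of *psmb12* (r = 0.98) gave 1.22 beside 1.05, that of *psme1* (r = 0.94) gave 0.95 beside 0.80, and that of *psmc3ip* (r = 0.995) gave -2.15 beside -1.73.

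Other genes of the pathway were read from 3 lists. Of the accessory and regulator genes of the proteasome, which include a ubiquitin-activating enzyme, transcription factors of proteasome genes and the maturation factor POMP, 28 of 35 were found. None passed in LPS against PBS, of 22 tested in muscle, 21 in kidney and 24 in liver. The median differences were 0.12 in muscle, 0.07 in kidney and 0.33 in liver. *nfe2l1a*, a homologue of the transcription factor that drives proteasome genes in mammals, had a liver difference of 1.78 (limma adjusted p = 0.0978), and *pomp* had 0.70.

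MHC class I antigen processing genes, of which 16 of 30 were found, had a median liver difference of 1.35, with 9 of 10 tested above 0. One passed, *mhc1zea*, an MHC class I heavy chain, at 2.57 (limma adjusted p = 0.0389). *tap2a*, a subunit of the peptide transporter, had 1.85 without passing. None of 13 tested passed in kidney (median 0.31) or in muscle (median 0.03).

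Of the interferon and IRF regulators 11 of 14 were found and tested. In liver *ifng1*, which encodes interferon-gamma, rose by 3.39 (limma adjusted p = 0.0191), and the median difference of the list was 1.94. *irf1b*, a homologue of the transcription factor that acts on immunoproteasome genes in mammals, had 3.69 in liver (limma adjusted p = 0.0596) and 4.20 in kidney (0.0702). None passed in kidney (median 1.39) or in muscle (median 0.23). Over the 3 tissues *ifng1* rose by 2.94 (limma adjusted p = 0.0051) and *irf1b* by 3.52 (limma adjusted p = 0.0122).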

How the data were processed

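RNA of 24 pooled samples was hybridised in 1 colour to Agilent zebrafish arrays, with 4 arrays in each of 6 groups of tissue and treatment. The deposited scanner files hold the intensity of each spot after the processing of Feature Extraction, which the file headers give as version 10.4.0.0. The deposited table of the series holds log2 values that the authors shifted to the 75th percentile of each array, with a further offset per probe that is not given in the sources used here. Centred by probe, 100% of that table matched the values made from the scanner files to within 0.01.

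The log2 of the processed intensity minus the 75th percentile of the array was used, outlier spots (28 to 3399 per array) were set to missing, and spots of 1 probe were averaged. No spot was saturated. Of the 43603 probes 25069 had a symbol, updated through accessions where the tables of names allowed. A gene was read through its probe with the highest mean over the 24 arrays. Each gene's probes were therefore compared only with themselves across arrays, never with another gene's.

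The moderated linear models of limma (version 3.58.1, run in R 4.3.3) followed the methods of the study, with Benjamini-Hochberg adjustment over all probes tested and a threshold of 0.05. LPS was compared with PBS on the 8 arrays of a tissue and on all 24 arrays, and tissues within a treatment in a fit of the 6 groups. The fit over the 3 tissues held the treatment only. Permutation tests and summaries were made in Python 3.11.15 with pandas 2.3.3, numpy 2.4.6 and scipy 1.17.1. The fits were tested on simulated data. The number of arrays limits the precision.

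The genes and lists were chosen with earlier results of these data known. Named genes were the immunoproteasome type subunits, their standard counterparts, the activators, *psmf1* and *psma8*, the genes that passed in a comparison, and in each LPS comparison the 3 largest differences whose arrays did not overlap. A part of that rule on the highest and lowest signals was not used, since signals of different probes are not comparable. *psma5*, *psma6l*, *psmb1*, *psmc1a*, *psmb3*, *psmd7*, *psmc3ip*, *psmd13* and the genes of the other lists were named after their values were seen.

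Same-numbered PBS arrays of different tissues deviated together from their group means (r between 0.14 and 0.72), as did same-numbered Kidney LPS and PBS arrays (0.28 to 0.64), while those of liver, of muscle and of the LPS arrays did not in every pair. Same-numbered Kidney LPS and Liver LPS arrays had r between -0.51 and -0.02. Some pairs of different numbers were closer. For Kidney and Liver PBS 3 the highest r with another number was 0.66, against 0.24. A shared pool was thus not established. Alternatives tried were quantile normalization, a shift at the 50th percentile, normexp on the median signal (the files hold no mean signal), the deposited table, other filters, outlier spots kept, any probe of the gene, slide, scan day, replicate number or pool as blocks, other sets of arrays and leaving out each array. Matches of promoter motifs and sequences were not analysed here.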

Additional observations from a re-analysis of the deposited data

Results flagged for a closer look

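In 21 of the 336 combinations of a proteasome gene and a group of 4 arrays (6.25%), 1 array lay far from the other 3 by the 95% limit of Dixon's test. Chance alone gives such a gap in about 1 in 20 groups. They fell 2 times in Liver LPS, 6 times in Kidney LPS, 3 times in Kidney PBS, 7 times in Muscle LPS and 3 times in Muscle PBS. No explanation was tested for any of them, and all values are log2 signals.

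Among the inducible genes and the activators, Kidney LPS 4 was the highest array in *psme1* at 3.80 (others 2.98 to 3.1) and in *psme4b* at -0.63 (others -1.20 to -1.17). Muscle LPS 2 was the highest in *psme1* at 2.45 (others 1.47 to 1.56) and in *psme2* at 2.87 (others 1.44 to 1.53). Kidney PBS 3 was the lowest in *psmb10* at 1.98 (others 2.76 to 2.91) and in *psme2* at 0.53 (others 2.86 to 3.27). In the inhibitor gene *psmf1* Muscle PBS 2 was the lowest at -1.66 (others -0.87 to -0.72).

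In the alpha ring, *psma4* was apart on Kidney LPS 4 at 4.25 (others 3.95 to 3.98) and on Muscle LPS 1 at 3.68 (others 3.87 to 3.88). *psma8* was apart on Muscle LPS 1 at 5.03 (others 4.55 to 4.63). In the beta ring, *psmb2* stood at 4.15 on Kidney LPS 4 (others 3.73 to 3.79) and *psmb5* at 2.44 on Liver LPS 3 (others 2.70 to 2.74). *psmb6* stood at 2.69 on Muscle LPS 1 (others 3.55 to 3.73) and *psmb7* at 2.67 on Muscle PBS 2 (others 4.03 to 4.25).

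In the 19S cap the gaps were mostly small. *psmc3* had 2.41 on Kidney PBS 4 (others 2.2 to 2.22) and *psmd1* 3.13 on Kidney LPS 3 (others 3.26 to 3.27). *psmd11b* had 0.45 on Kidney LPS 2 (others 0.26 to 0.29) and *psmd12* 2.55 on Muscle LPS 1 (others 3.12 to 3.24). *psmd13* had 3.45 on Muscle PBS 4 (others 3.15 to 3.19) and *psmd14* 3.81 on Muscle LPS 3 (others 3.97 to 4.00). *psmd8* had -0.65 on Liver LPS 4 (others -0.15 to -0.05).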

How the results depend on the processing

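Of 341 alternative counts of proteasome genes that passed, 290 lay within 1.5 times the count reported. For most comparisons the count reported was 0, often where few or no genes of any kind passed. The 290 are therefore no measure of how stable a call is. For LPS against PBS the count stayed at 0 in muscle and over the 3 tissues. It was 2 in kidney with the oocyte list as a covariate (8.6% of all genes), and 0 to 2 in liver when 1 array was left out. In this paragraph a percentage in brackets is the share of all genes that passed. No such share is given for any probe or for an array left out. Kidney against liver in LPS (0 reported) gave 1 after quantile normalization (17.2%), with scan day as a block (15.3%) and with the pool as a random block (22.6%). On 8 arrays it also gave 1, with (15.3%) and without (22.8%) the replicate block. In PBS (1 reported) it gave 0 with normexp (7.52%), the deposited table (19.3%), outlier spots kept (19.3%) and scan day as a block (5.44%). On 8 arrays it gave 0 with (8.77%) and without (4.46%) the replicate block. It gave 2 with any probe or the oocyte covariate (29.4%), and 3 after quantile normalization (15.6%) or with the pool as a random block (25.5%). With an array left out it gave 0 to 1. Muscle against liver in LPS (15) gave 23 with any probe, 0 with the oocyte covariate (17.3%) and 13 with the replicate block (49.1%). It gave 3 without the first 4 arrays whose hepatocyte markers stood apart (36.6%) and 4 without Muscle PBS 2 as well (39%). With an array left out it gave 7 to 15. In PBS (3) it gave 0 with the shift at the 50th percentile (19.1%) and on 8 arrays with (18.1%) and without (11.3%) the replicate block. It gave 5 with the oocyte covariate (23.5%), and 0 to 3 with an array left out. Muscle against kidney in LPS (0) gave 1 with the shift at the 50th percentile (15.5%), 3 with any probe and 6 on 8 arrays (29% of all genes). It gave 2 with the pool as a random block (21.5% of all genes) and 0 to 1 with an array left out. In PBS (1) it gave 0 with normexp (9.88%), the deposited table (13.2%), outlier spots kept (13.2%) and on 8 arrays (4.72%). It gave 2 with the pool as a random block (20.1%) or the oocyte covariate (28.1%), and 1 to 3 with an array left out. For the differences of LPS effects (0), muscle against liver gave 1 with the replicate block of pools (7.67% of all genes). Muscle against kidney gave 1 with the oocyte covariate (8.65% of all genes) and 0 to 1 with an array left out. The replicate block left the other counts of LPS against PBS at 0 and changed no other call. The oocyte covariate and the loss of 4 or 5 arrays were chosen after seeing the data, and the cause of each change was not tested.

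Single log2 differences changed sign 38 times in 1138 alternatives, most of them among the inducible genes. In liver *psme1* was -0.66 with the slide as a block, which leaves 1 LPS array, and with the oocyte covariate *psme1*, *psmb8a* and *psmc3ip* were -0.45, -0.42 and 0.25. In kidney with the slide as a block *psmb9a*, *psmb12*, *psmb13a*, *psme1* and *psme2* were -0.28, -0.31, -0.55, -0.78 and -0.16, and with scan day *psmb13a*, *psme1* and *psme2* were -0.21, -0.58 and -0.00629, both blocks leaving Kidney PBS 4 as the only PBS array. Kidney *psmb10* was 0.0241 after quantile normalization, 0.13 with the oocyte covariate and 0.17 without the 4 or the 5 arrays. With an array left out it lay between -0.26 and 0.0758, and kidney *psme1* between -0.28 and 0.47. In muscle *psmb8a* was -0.36 with the slide as a block and -0.61 to 1.19 with an array left out, where *psme1* and *psme2* lay between -0.99 and 0.0657 and between -0.96 and 0.26. Without the 5 arrays muscle *psmb9a*, *psmb12*, *psmb13a*, *psme1* and *psme2* were 0.0132, 0.38, 0.30, 0.16 and 0.38. With the oocyte covariate muscle *psmb12*, *psmb13a*, *psme1* and *psme2* were 0.17, 0.19, 0.29 and 0.49, and *psme4b*, muscle minus liver in LPS, was 0.10. Slide as a fixed block in the 6 tissue comparisons, and scan day as one in the 4 with muscle, could not be fitted and were not run.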
